A study of Mus musculus with 12 samples.

Results

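The experiment compared lungs of mice that lack the transcription factor NRF2 with lungs of wild-type mice, both breathing on their own. NRF2 is encoded by Nfe2l2. It was one contrast of a series of 12 microarrays in 4 groups of 3, in which the other 2 groups, again 1 of each genotype, were ventilated for 2 h at a tidal volume of 30 ml per kg. The 6 arrays used here were chosen by their labels alone: 3 from Nrf2-/- mice and 3 from Nrf2+/+ mice, all on the CD-1/ICR background and without mechanical ventilation. A duration of 2 h was recorded for these 6 arrays as well. Wild-type array 1 was labelled as whole lung, and the other 11 arrays of the series as left lobe. The labels used here give neither the age of the animals nor which part of the gene was removed, and nothing says which arrays came from separate animals, so the p-values measure the spread between these arrays, which may be partly technical.

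NRF2 is held in the cytoplasm by KEAP1 and degraded until electrophiles or oxidants modify KEAP1. It then pairs with a small MAF protein at antioxidant response elements and drives genes for glutathione conjugation, thiol reduction, quinone reduction and NADPH supply. In lung these enzymes sit mainly in airway and alveolar epithelium, endothelium and macrophages, and a lung without NRF2 has a lower basal supply of several of them.

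Knockout array 1 stood apart from the other 5. Its deposited signals had a trimmed mean of 73.9, against 316 to 469 on the others, so a scaled signal of 100 on it was a deposited signal of 14.8. The ratio of its 3' to its 5' beta-actin control, which rises as RNA degrades, was 8.76. The same ratio was 2.51, 2.08 and 2.36 on wild-type arrays 1 to 3 and 1.39 and 1.52 on knockout arrays 2 and 3, and for Gapdh 1.59, 1.55 and 1.75 against 1.2 and 1.12. Once knockout array 1 is left out, both ratios therefore separate the genotypes. Its mean correlation with the rest of the series was 0.874, against 0.929 to 0.941. Each main result is therefore given with and without it. Lung markers were bright on all 6 arrays: Sftpc, the surfactant protein of alveolar type 2 cells, ranged from 12126 to 26277, lowest on knockout array 1, and Scgb1a1, the club cell secretory protein, from 22659 to 26277. Signals here are the deposited intensities after rescaling and quantile normalisation, and differences are log2, knockout minus wild type.

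The targeted gene followed its labels. Nfe2l2 read 2144, 2657 and 3298 on wild-type arrays 1 to 3, and 45, 36 and 43 on knockout arrays 1 to 3. The groups were far apart, including knockout array 1. The difference was -5.55 ± 0.20 (SE, n = 3 per group), a 46.9-fold lower signal (limma adjusted p = 1.39e-08), and -5.63 ± 0.21 without knockout array 1. Because 16 was added to each signal before taking logs, differences of dim genes are understated.

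Of 9333 genes tested, 31 were called at an adjusted p under 0.05, which is 0.332% of them. Nfe2l2 and 15 others were lower in the knockout, 0.171% of genes tested, and 15 were higher, 0.161%. All 31 had groups of 3 arrays that did not overlap, as did 18.4% of all genes tested. An unadjusted p under 0.05 was reached by 1277 genes. Without knockout array 1, 175 of 9189 genes were called (1.9%), 108 higher (1.18%) and 67 lower (0.729%). All 31 genes were among the 175. In that fit the knockout arrays had lower 3' to 5' ratios than every wild-type array, and the part of RNA quality in its calls was not tested. The count with all arrays rested on several of them: it was 18, 11 or 12 without wild-type array 1, 2 or 3, and 46 or 16 without knockout array 2 or 3.

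The steepest falls after Nfe2l2 itself were among enzymes that hydrolyse or oxidise foreign compounds. Ces1g, a carboxylesterase that cleaves ester and amide bonds of drugs and lipids, read 278, 244 and 326 in wild-type lungs and 1.6, 25 and 16 in knockout lungs. Ces1f, a related carboxylesterase, read 210, 237 and 239 against 25, 6 and 1.5. Every knockout array was therefore near the floor of the scale for both, while no wild-type array was under 210. The differences were -3.38 ± 0.41 for Ces1g (adjusted p = 0.0023) and -3.29 ± 0.35 for Ces1f (adjusted p = 0.000816). Their size was set by the amount added before taking logs: with 1 in place of 16 they were -4.74 and -4.89, and with 64 they were -2.15 and -1.98, all called.

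Aox1, an aldehyde oxidase, fell by 1.93 ± 0.16, or 3.81-fold (adjusted p = 0.000124). Its signals were 1444, 1565 and 1393 in wild-type lungs and 405, 333 and 385 in knockout lungs, a narrow spread within either group. Of the 10 carboxylesterases and molybdenum oxidases measured, these 3 were called, all lower, with a median of -0.79 over the 10. With no filter on dim probe sets the list's median was -0.39, and without knockout array 2 it was -0.58. The median over all genes tested was -0.01. Leaving out knockout array 1, 6 of 9 measured were called lower, with a median of -1.03: Aox3 (-1.03 ± 0.16, adjusted p = 0.00814), Ces1e (-1.44 ± 0.22, adjusted p = 0.00644) and Ces1d (-0.84 ± 0.16, adjusted p = 0.0235) joined the list. On these 3 genes knockout array 1 was the highest of the knockout arrays: Ces1d, for example, read 6429 there but 2757 and 2662 on arrays 2 and 3, against 4458 to 5333 in wild-type lungs.

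Glutathione S-transferases attach glutathione to electrophiles. Gstm1, of the mu class, read 4011, 5068 and 3649 in wild-type lungs and 1485, 1257 and 1349 in knockout lungs. Gsta3, of the alpha class, read 975, 867 and 1112 against 274, 270 and 245. Neither pair of groups overlapped, and knockout array 1 lay close to the other knockout arrays for both. Gstm1 fell by 1.62 ± 0.17 (3.07-fold, adjusted p = 0.000816) and Gsta3 by 1.84 ± 0.25 (3.57-fold, adjusted p = 0.00654).

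The rest of the transferase family was mixed. Of 19 members measured, 2 were called and 11 were below 0, with a median of -0.06. Leaving out array 1, 3 were called and 15 were below 0, with a median of -0.32, whereas without knockout array 2 the median was 0.19. Gstm2 gave -0.89 ± 0.20 (adjusted p = 0.0881) with all arrays and was called without knockout array 1 (-1.07 ± 0.19, adjusted p = 0.0137). Gsta4, Gstp1 and Mgst1, all bright genes, gave -0.06, -0.27 and 0.06 with adjusted p-values of 0.466 to 0.948. Mu class transferases are near copies of each other, so their probe sets may bind relatives.

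**Figure D1:**
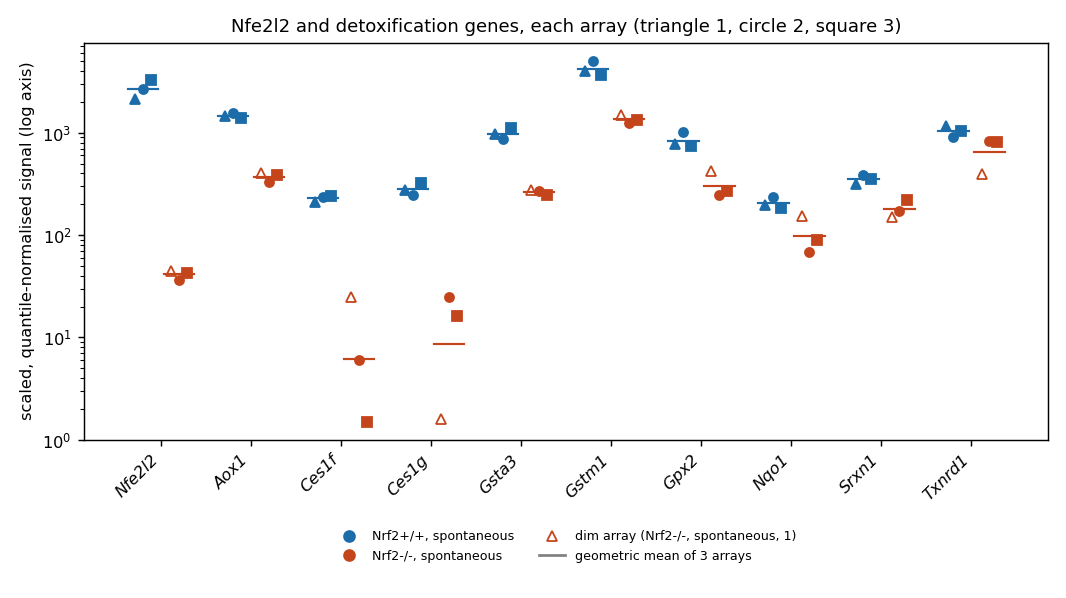
Signal of Nfe2l2 and 9 detoxification genes on each of the 6 spontaneously breathing arrays, on a log axis; blue points are Nrf2+/+, red points Nrf2-/-, open triangles the dim knockout array 1, and bars the geometric mean of 3 arrays. For Nfe2l2, Aox1, Ces1f, Ces1g, Gsta3 and Gstm1 the groups are well separated, while knockout Txnrd1 on arrays 2 and 3 lies at 838 and 813, close under the lowest wild-type array at 918.

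The thiol and peroxide enzymes, which are widely used readouts of NRF2 activity, showed smaller differences in unventilated lung. Gpx2, the epithelial glutathione peroxidase, read 777, 1018 and 739 in wild-type lungs and 420, 248 and 270 in knockout lungs. These groups did not overlap, but the difference of -1.41 ± 0.29 had an adjusted p of 0.0658. Without knockout array 1 it was called at -1.64 ± 0.29 (adjusted p = 0.014). Nqo1, the NAD(P)H quinone reductase, read 196, 238 and 182 against 153, 69 and 90, and gave -0.93 ± 0.28 (adjusted p = 0.174). It was called at -1.22 ± 0.25 (adjusted p = 0.0303) without that array. Srxn1, the sulfiredoxin that repairs overoxidised peroxiredoxins, read 315, 389 and 356 against 149, 173 and 221. Its difference of -0.92 ± 0.21 was not called with all arrays (adjusted p = 0.0907) or without array 1 (adjusted p = 0.0746).

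Glutathione synthesis showed no called gene. Gclc, the catalytic subunit of glutamate-cysteine ligase, gave -0.29 ± 0.23 (adjusted p = 0.604), and without knockout array 1 the value was 0.00 ± 0.17. Gclm, its modifier subunit, gave -0.11 ± 0.29 (adjusted p = 0.905). Txnrd1, the cytosolic thioredoxin reductase, gave -0.67 ± 0.27 (adjusted p = 0.309), and -0.33 ± 0.21 without array 1, where it read 397 against 838 and 813 on the other knockout arrays.

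By list, none of 15 glutathione and thioredoxin genes, 13 peroxide and superoxide genes, 25 quinone and carbonyl reducing genes, 10 NADPH-supplying genes or 14 heme and iron genes was called with all arrays. Their medians were -0.11, -0.30, -0.22, -0.12 and -0.15. When knockout array 1 was left out, Gpx2, Gpx7 (-1.01 ± 0.19) and catalase, Cat (-0.81 ± 0.15), were called lower among the peroxide genes, Nqo1 among the quinone genes, and the transferrin receptor Tfrc (-0.85 ± 0.17) among the iron genes. Hmox1, heme oxygenase, read 27 on knockout array 1 and 320 and 195 on the others, against 166 to 270 in wild-type lungs, so its value of -0.72 ± 0.56 came with array 1 and was 0.15 ± 0.29 without it. NRF2's partners and repressors gave 1 call besides Nfe2l2, and only without array 1: Maff, a small MAF protein, was higher by 1.07 ± 0.24 (adjusted p = 0.0453). Keap1 gave -0.01 ± 0.22.

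Promoter sequences from RefSeq (GRCm38.p6) were searched for the antioxidant response element core, TGACNNNGC on either strand, from 250 bases before to 50 bases after the annotated start of each gene. Those of 4 glutathione and thioredoxin enzymes with a match are shown, because their responses to the loss of NRF2 differed, together with those of Mt1, which rose, and its neighbour Mt2. Capitals mark the matched letters of the antioxidant core in the first 5, and of a metal response core, TGCACNC, in the last. TGCACNC or TGCGCNC on either strand was held by 40.2% of the windows of genes tested. Among called genes with a window, 6 of 10 higher (60%) and 2 of 13 lower (15.4%) held it. Without knockout array 1 the shares were 32.1% and 29.4%. Mt2 also held metal response matches, not printed here, that began 223, 128 and 50 bases before its start. Gsta3 lies at chr1:21240440-21240496, Gclm at chr3:122245399-122245455, Txnrd1 at chr10:82859090-82859146, Mgst1 at chr6:138140447-138140503, Mt2 at chr8:94172515-94172571 and Mt1 at chr8:94179042-94179088, all on the plus strand and upstream of the start.
Gsta3: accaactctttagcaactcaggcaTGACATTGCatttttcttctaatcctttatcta
Gclm: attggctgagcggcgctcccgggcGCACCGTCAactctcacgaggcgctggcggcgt
Txnrd1: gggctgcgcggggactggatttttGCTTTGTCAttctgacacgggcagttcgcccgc
Mgst1: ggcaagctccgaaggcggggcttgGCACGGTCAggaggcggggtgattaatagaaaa
Mt2: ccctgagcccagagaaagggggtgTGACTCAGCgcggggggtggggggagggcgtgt
Mt1: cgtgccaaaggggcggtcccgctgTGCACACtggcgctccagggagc

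The core of Gsta3 began 121 bases before the start and read in the direction of the gene. Those of Gclm, Txnrd1 and Mgst1 began 134, 92 and 56 bases before it, in the opposite direction. Of the 4 enzymes, Gsta3 alone was called in spontaneously breathing lung. Among the 16 genes called lower, 13 had a promoter window and 2 of these, Gsta3 and Nfe2l2 itself, held the core, or 15.4%. Among the 15 called higher, 1 of 10 with a window held it (10%), Tnfaip2. Among all genes tested, 1259 of 7520 with a window held it (16.7%). Without knockout array 1 the shares were 6 of 51 genes called lower (11.8%) and 12 of 84 called higher (14.3%). A match is only a string of letters, and sites outside these windows were not searched.

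The other called falls fell outside the detoxification lists. Car4, the membrane carbonic anhydrase of lung capillary endothelium, read 2433, 3377 and 3253 in wild-type lungs and 540, 1059 and 869 in knockout lungs. The groups did not overlap, and the difference was -1.89 ± 0.27 (adjusted p = 0.00792). Tfpi, the inhibitor of tissue factor made by endothelium, fell by 1.05 ± 0.17 (adjusted p = 0.0203), from 420, 421 and 549 to 218, 205 and 221. Kitl, the ligand of the KIT receptor, fell by 1.06 ± 0.20 (adjusted p = 0.0477), with 4430, 4107 and 4448 in wild-type lungs and 1480, 2537 and 2352 in knockout lungs. On the probe sets used, the groups of both genes stood apart on every array. Other probe sets of Tfpi gave -1.09 and -0.99, with overlapping groups. Other probe sets of Kitl gave -0.75 to -0.99, and the groups overlapped on that at -0.97.

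Car4 and Tfpi are also on the list of endothelial markers. Of 23 measured, 22 were below 0, with a median of -0.82, and these 2 were called. Their summed signal was 50307 to 63158 in wild-type lungs and 22329, 46528 and 37824 in knockout lungs. The lowest sum was that of knockout array 1, and without it the median was -0.50, with Sox17, an endothelial transcription factor, added as another call (-1.35 ± 0.26, adjusted p = 0.0224). Cdh5, the endothelial cadherin, read 321 on knockout array 1 against 1804 and 1744 on the others and 3132 to 4471 in wild-type lungs, and was not called (-1.87 ± 0.53, adjusted p = 0.156). In whole tissue, fewer cells of a type and less RNA per cell cannot be told apart. Alveolar type 1 markers also differed most on array 1: all 8 were below 0 with a median of -0.76, none was called, and the median was -0.26 without it.

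The remaining falls were AI506816 (-2.50), Cwc22 (-1.95), a splicing factor, Bex4 (-1.60), Nrep (-1.34), Serinc3 (-1.14), a membrane protein, and Homer3 (-1.11), a scaffold protein. Serinc3 read 8698, 7682 and 8245 in wild-type lungs and 3526, 4269 and 3404 in knockout lungs, among the tightest separations of the comparison (adjusted p = 0.00204). Usp39, a splicing protein, read 2103, 1967 and 1826 against 201, 178 and 195 on the probe set used, a difference of -3.26 ± 0.49. A second probe set for Usp39 gave -0.18, so its call belongs to 1 probe set.

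Cwc22 and Tfpi lie on chromosome 2 near Nfe2l2, 8 and 17 measured genes away on one side. Metap1d, a mitochondrial methionine aminopeptidase, is 15 away on the other side, and it was higher by 1.53 ± 0.26 (adjusted p = 0.0241). Mybpc3, described with the heart genes, is 41 away on the side of Cwc22. Of the 100 measured genes nearest Nfe2l2, 50 on each side, 2 were called higher and 2 lower, or 4%, beside 0.332% of all genes tested, with a median of -0.02. Without knockout array 1 the counts were 2 and 3, adding Scn7a, a sodium channel gene (-0.92, adjusted p = 0.0425). Cwc22 read 749, 495 and 659 in wild-type lungs and 148, 154 and 148 in knockout lungs, and in ventilated lungs 617 to 903 against 107 to 162.

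Of the 15 genes called higher, Mt1 and Ppbp had the largest differences. Mt1, a metallothionein, is a cysteine-rich protein that binds zinc and scavenges radicals. It read 1592, 1526 and 1043 in wild-type lungs and 3631, 5715 and 6771 in knockout lungs. All 3 knockout arrays were above all 3 wild-type arrays. The difference was 1.92 ± 0.25, or 3.78-fold (adjusted p = 0.00584). A second, dimmer probe set for Mt1 read 82, 91 and 101 against 90, 298 and 299 (1.04), with knockout array 1 within the wild-type range, and with both probe sets averaged Mt1 was not called (1.48 ± 0.38, adjusted p = 0.118). Mt2, its neighbour and close relative, read 2251, 1694 and 1482 against 2881, 7384 and 10115. It was not called with all arrays (1.74 ± 0.36, adjusted p = 0.0691) but was without array 1 (2.22 ± 0.22, adjusted p = 0.000301). The 2 metallothioneins were the calls among 10 metallothionein and zinc transport genes without array 1, and the median of the 10 was 0.16 with all arrays and 0.17 without it.

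Pigr, the receptor that carries polymeric IgA across airway epithelium into the lumen, read 1300, 899 and 844 in wild-type lungs and 3031, 3151 and 3259 in knockout lungs. The 3 knockout arrays agreed closely, and the rise of 1.64 ± 0.24 was 3.13-fold (adjusted p = 0.00811). Bpifa1, a secreted airway defence protein, read 586, 537 and 256 against 2319, 9383 and 7342, and Ltf, the iron-binding protein lactoferrin, 429, 339 and 312 against 971, 1607 and 2165. Neither pair of groups overlapped, yet both had an adjusted p of 0.0658 with all arrays, at 3.60 ± 0.73 and 2.03 ± 0.41. Without array 1 both were called, Bpifa1 at 4.17 ± 0.70 (adjusted p = 0.0114) and Ltf at 2.34 ± 0.41 (adjusted p = 0.0139). Of 17 airway markers measured, 14 were above 0 with all arrays, with a median of 0.44, and 1 was called. Without array 1, 12 were above 0, with a median of 0.26, and 3 were called. Cyp2f2 and Scgb3a2, club cell genes, gave 0.02 and 0.09. The summed airway signal was 133467 to 145387 in wild-type lungs and 147802 to 168525 in knockout lungs. This sum includes Pigr, Bpifa1 and Ltf, so it is not separate from their rises.

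Ppbp, a chemokine stored in platelets, read 393, 220 and 244 in wild-type lungs and 694, 1598 and 1145 in knockout lungs, a rise of 1.91 ± 0.31 (adjusted p = 0.0203). The other 7 platelet markers measured were not called, and the list's median was 0.52, or 0.32 without array 1. Its summed signal, which includes Ppbp itself, was 2244 to 3064 in wild-type and 3486 to 4643 in knockout lungs. The part of platelet content in the Ppbp result was not tested. Tnfaip2, induced by tumour necrosis factor, read 462, 248 and 433 against 836, 1557 and 1961 and rose by 1.85 ± 0.33 (adjusted p = 0.0345). Its other probe set gave 0.48, from 237, 237 and 175 to 269, 345 and 304.

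The rises included 1 smooth muscle gene and 1 heart gene. Cnn1, the smooth muscle calponin, read 467, 451 and 514 in wild-type lungs and 1077, 881 and 1419 in knockout lungs, a rise of 1.19 ± 0.18 (adjusted p = 0.0136). Mybpc3, cardiac myosin binding protein C, read 638, 393 and 367 against 1001, 1237 and 1198, a rise of 1.31 ± 0.23 (adjusted p = 0.0367). Of 20 heart markers measured, 18 were above 0 with a median of 0.57, and Mybpc3 alone was called. Their summed signal was 35163 to 51496 in wild-type lungs and 61092 to 71870 in knockout lungs. Of 14 smooth muscle markers Cnn1 alone was called, and they summed to 18559 to 20401 and 22693 to 27752. How much heart or vessel wall each piece of tissue held was not tested.

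Of the other rises, Cidea, a lipid droplet protein, rose by 1.65 ± 0.25, Msmo1, a sterol oxidase of cholesterol synthesis, by 1.33 ± 0.25, and Dgat1, which makes triacylglycerol, by 0.85 ± 0.15. Cidea is also on the list of fat markers. Of 7 measured, 5 were above 0, with a median of 0.32, or 0.56 without array 1, and Cidea alone was called. The fat markers summed to 3639 to 4842 in wild-type lungs and 3942, 7243 and 5764 in knockout lungs. How much fat each piece of tissue held was not tested. Lrrfip2 (1.43) and Naf1 (0.76), a factor for small nucleolar ribonucleoproteins, complete the called rises with 3 genes that rest on 1 of several probe sets. Vamp3, a vesicle fusion protein, gave 1.62 on the probe set used and -0.22 to 0.59 on its other 4. Ptpn2, a tyrosine phosphatase, gave 1.15 and -0.55 to 0.72 on its other 3. Ckap4, an endoplasmic reticulum membrane protein, gave 0.98 and 0.08 to 0.74 on its other 3. With the probe sets of a gene averaged, 6 of the 31 lost their call: Car4 (-2.15), Tfpi (-1.04), Mt1 (1.48), Vamp3 (0.49), Ptpn2 (0.88) and Ckap4 (0.48).

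Apart from Nfe2l2, 8 of the 30 called genes were called in all 12 fits that left out 1 array of the series: Aox1, Ces1f, Ces1g, Cwc22, Gstm1, Mt1, Serinc3 and Vamp3. AI506816 and Gsta3 were called in 11 of the 12. Dgat1, Kitl, Lrrfip2, Msmo1 and Naf1 were called in 2 or 3. Of the 6 fits that left out an array of this comparison, Dgat1, Naf1, Tfpi and Tnfaip2 were called in 1, and Cnn1, Homer3, Kitl, Lrrfip2, Metap1d, Msmo1, Mybpc3, Ptpn2 and Usp39 in 2. No called gene changed sign.

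The ventilated arrays offered a second comparison of the same genotypes on other lungs. It shared no array with this one, though the estimate of spread and the normalisation were joint. Array quality separated the genotypes in the ventilated lungs too. The actin 3' to 5' ratio was 1.99, 1.58 and 1.53 on wild-type arrays 1 to 3 and 3.1, 2.21 and 3.02 on knockout arrays 1 to 3. Deposited trimmed means were 279, 439 and 439 against 194, 247 and 182. The Gapdh ratios overlapped. The part of RNA quality in the ventilated differences was not tested. In the ventilated comparison, 69 of 9333 genes were called, or 0.739%. Of the 31 genes called in spontaneously breathing lung, 30 had the same sign after ventilation and 14 were called again. These counts include Nfe2l2, the deleted gene, whose agreement was fixed by the genotypes. The share of all genes tested with the same sign in both comparisons is not given here, so the 30 of 31 has no background beside it. The 14 called again included 10 of the 16 lower genes, where ventilation gave 0.407% of genes lower. The other 4 were among the 15 higher genes, where it gave 0.332% higher, and included Mybpc3. In ventilated lungs 9 of 20 heart markers were called higher. The heart markers summed to 34708 to 55440 in wild-type and 75782 to 110965 in knockout ventilated lungs. Skeletal muscle markers summed to 47682 on ventilated knockout array 2, against 428 to 1242 on the other ventilated arrays. How much other tissue each piece held was not tested.

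For the enzymes with a measurable knockout signal the values were close: Aox1 differed by -1.93 in spontaneously breathing and -1.99 in ventilated lungs, Gstm1 by -1.62 and -2.0, and Gsta3 by -1.84 and -1.97. Ces1f and Ces1g were called in both, but with knockout signals near the floor their sizes cannot be compared. Car4 (-1.89 and -1.79), Serinc3 (-1.14 and -1.11) and Vamp3 (1.62 and 1.5) did likewise. Bex4 gave -1.60 and -0.51, and Nrep -1.34 and -0.34, and neither was called after ventilation. Mt1 was the exception in sign, at 1.92 ± 0.25 and -0.30 ± 0.25.

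Srxn1, Txnrd1 and Gclc, uncalled in spontaneously breathing lung, were called in ventilated lung at -2.20, -1.54 and -1.35. Their differences between the conditions were not called: the test of spontaneous minus ventilated difference called 0 of 9333 genes in limma with all arrays (0%), while 456 had an unadjusted p under 0.05. The smallest adjusted p was 0.201, for Mt1 (2.22 ± 0.36) and Maff (1.94 ± 0.32). Without knockout array 1 that test called 82 of 9189 genes (0.892%).

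**Figure D2:**
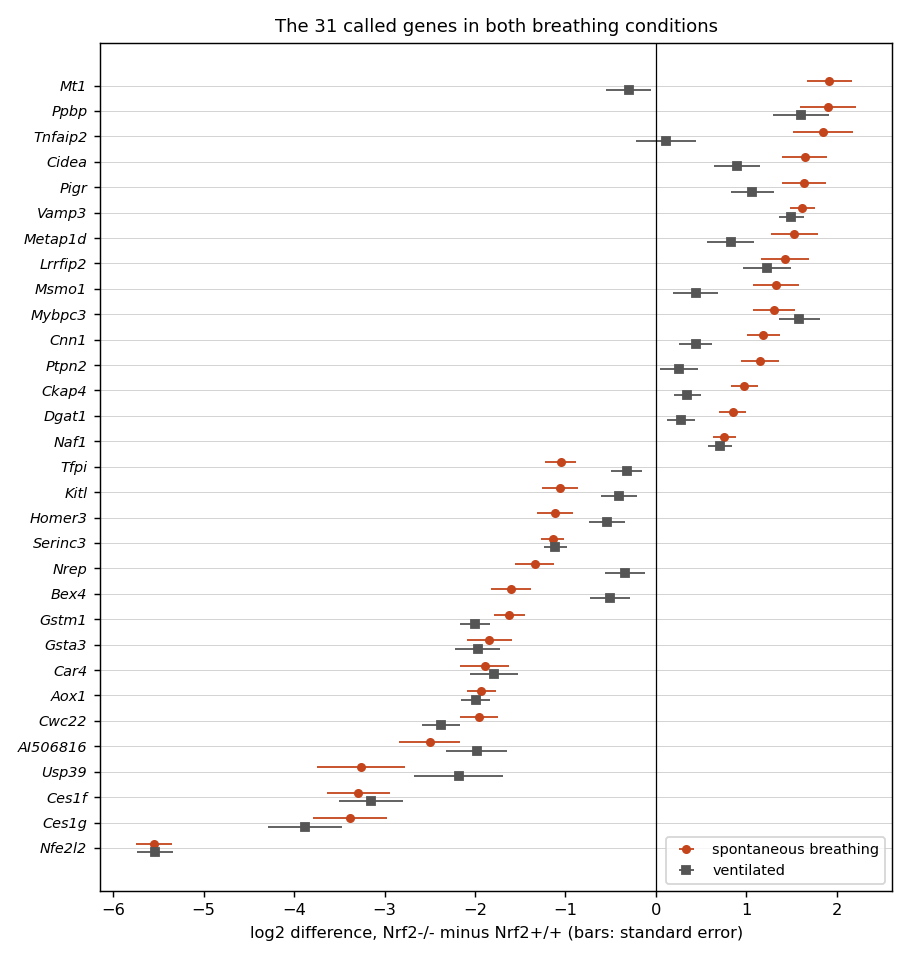
Log2 difference, knockout minus wild type, of the 31 called genes in spontaneously breathing lungs (red circles) and ventilated lungs (grey squares); bars are standard errors from the limma fit. Aox1 and the transferases lie at similar places in both, while Mt1 lies at 1.92 and -0.30 and Tnfaip2 at 1.85 and 0.11. For Ces1f and Ces1g, with knockout signals near the floor, sizes cannot be compared.

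Leaving out knockout array 1 added 144 calls, 93 higher and 51 lower. On 60 of the 144 genes knockout array 1 lay on the same side of the wild-type arrays as the other knockout arrays, on 38 it lay within the wild-type range, and on 46 it lay on the opposite side. For 2 of the genes, Gdpd1 and Atp6v1d, the fit without it also read another probe set. The added calls thus describe knockout arrays 2 and 3, and in part genes on which knockout array 1 read differently.

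Immunoglobulin genes showed this most sharply. Jchain, which joins IgA and IgM into polymers, read 389, 360 and 362 in wild-type lungs and 451, 6756 and 6802 in knockout lungs. Igha, the IgA heavy chain, read 305, 331 and 450 against 191, 6377 and 5688. Igkv8-30, a kappa light chain variable segment, read 326, 482 and 433 against 329, 3663 and 4380. For all 3 genes knockout arrays 2 and 3 were far above every wild-type array, and knockout array 1 was at or near wild-type level. With all arrays the differences were 2.85 ± 0.77, 2.39 ± 1.0 and 2.06 ± 0.75, and none was called (adjusted p = 0.131, 0.317 and 0.255). Without array 1 they were 4.12 ± 0.27, 4.0 ± 0.43 and 3.24 ± 0.37 (adjusted p = 9.07e-06, 0.000582 and 0.000858).

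These 3 genes and Igkv9-120 (2.52 ± 0.36) were called in every fit in which 1 more array was left out and the gene was tested. The heavy chain of IgM, Ighm, was called too (2.0 ± 0.38, adjusted p = 0.0193). Markers of the B cell surface were not called: Cd79a read 236 to 282 in wild-type lungs and 200, 473 and 203 in knockout lungs, and Ms4a1, which encodes CD20, 240 to 321 against 303, 484 and 275. The 9 B cell and plasma cell genes, which include Jchain, Igha and Ighm, summed to 3319 to 3504 in wild-type lungs. In knockout lungs they summed to 3316, 20797 and 18539.

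**Figure D3:**
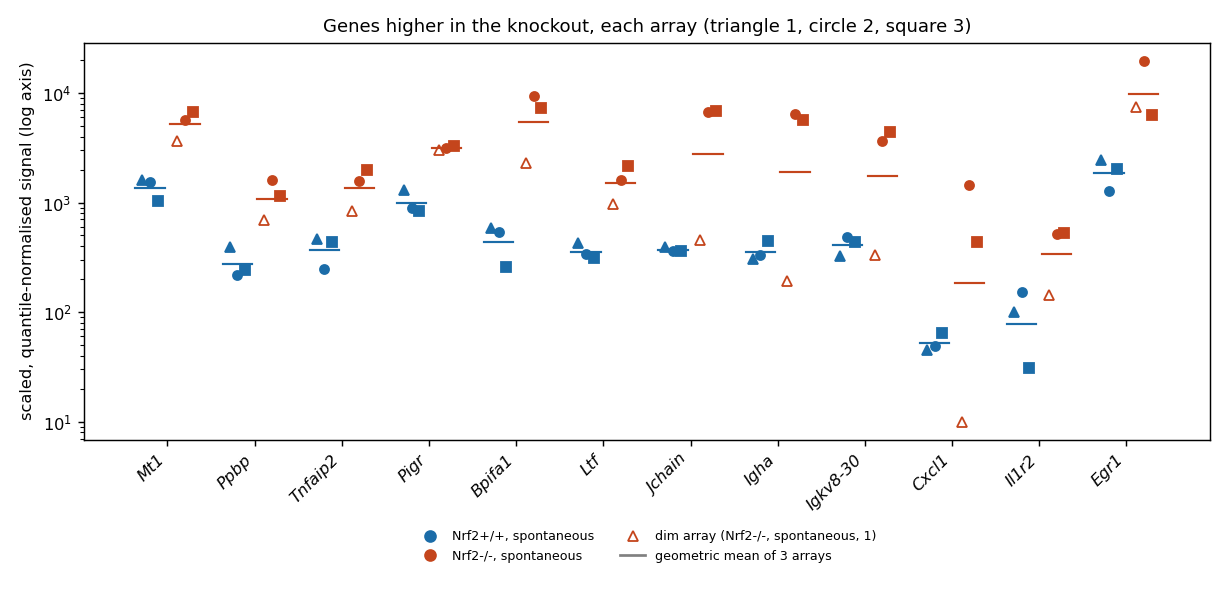
Signal of 12 genes that were higher in the knockout with all arrays or without knockout array 1, on each of the 6 spontaneously breathing arrays, on a log axis; colours and symbols as for the detoxification genes. Mt1, Ppbp, Tnfaip2 and Pigr are higher on all 3 knockout arrays, whereas Jchain, Igha, Igkv8-30 and Cxcl1 are high on knockout arrays 2 and 3 and at or under wild-type level on array 1, apart from Jchain at 451.

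Several genes of acute inflammation were highest on the same 2 arrays. Cxcl1, a neutrophil-attracting chemokine, read 45, 49 and 64 in wild-type lungs and 10, 1431 and 433 in knockout lungs. Il1b, the cytokine interleukin-1 beta, read 226, 325 and 154 against 421, 1129 and 990. Cxcl1 was lowest of all on knockout array 1, while Il1b lay there between the wild-type arrays and the other knockout arrays. Without array 1 Cxcl1 was called at 3.59 ± 0.47 (adjusted p = 0.00215) and Il1b at 2.17 ± 0.41 (adjusted p = 0.0193), and with all arrays neither was (adjusted p = 0.441 and 0.121).

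Of 18 cytokines and chemokines measured, 1 was called higher with all arrays, Ppbp, and 6 without array 1, adding Cxcl1, Il1b, Ccl6, Ccl9 and Ccl20, none lower. Of 14 NF-kB feedback and adhesion genes, Tnfaip2 was called with all arrays, and Nfkbiz and Relb joined it without array 1. Neutrophil markers had a median of 0.72 over 13 genes with none called. Without array 1 the median was 1.30 with 6 called higher, beside 1.18% of all genes tested in that fit. Without knockout array 2 the median was 0.25. Among the 6 were Csf3r, the granulocyte growth factor receptor (1.41 ± 0.31), the granule protease Mmp8 (1.54 ± 0.33), and Lcn2 (1.71 ± 0.27). Ltf, already counted with the airway markers, is on both lists and was also among the 6. Il1r2, the decoy receptor of interleukin-1, and Clec4d, a myeloid lectin, were called at 2.50 ± 0.49 and 2.22 ± 0.44, each in 1 of 5 fits with 1 more array left out. The neutrophil markers summed to 20309 to 24542 in wild-type lungs and 25522, 40078 and 31711 in knockout lungs, and S100a8, the most abundant granulocyte cytosol gene of the list, read 2158, 10586 and 5059 against 2582 to 3545. Neutrophil number was not measured, and its part in these differences was not tested.

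Egr1 and Fos, immediate early genes of the kind that respond quickly to growth factors and stretch, were highest on knockout array 2. Egr1, a zinc finger factor, read 2447, 1283 and 2044 in wild-type lungs and 7384, 19708 and 6360 in knockout lungs. Fos read 903, 979 and 778 against 1679, 5140 and 2113. The groups of both genes did not overlap, with array 1 on the side of the other knockout arrays. Egr1 gave 2.38 ± 0.47 with all arrays (adjusted p = 0.0658) and 2.48 ± 0.48 without array 1 (adjusted p = 0.0224), and Fos 1.56 ± 0.37 (adjusted p = 0.107) and 1.88 ± 0.35 (adjusted p = 0.0184). Of 24 such genes measured, 19 were above 0, with a median of 0.45 and none called. Without array 1, Egr1, Egr2 and Fos were called and the median was 0.82. With 1 more array left out, Egr1 was called in 2 of 5 fits and Egr2 in none of 5. In ventilated lungs, on other arrays, the same 24 had a median of -0.79.

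**Figure D4:**
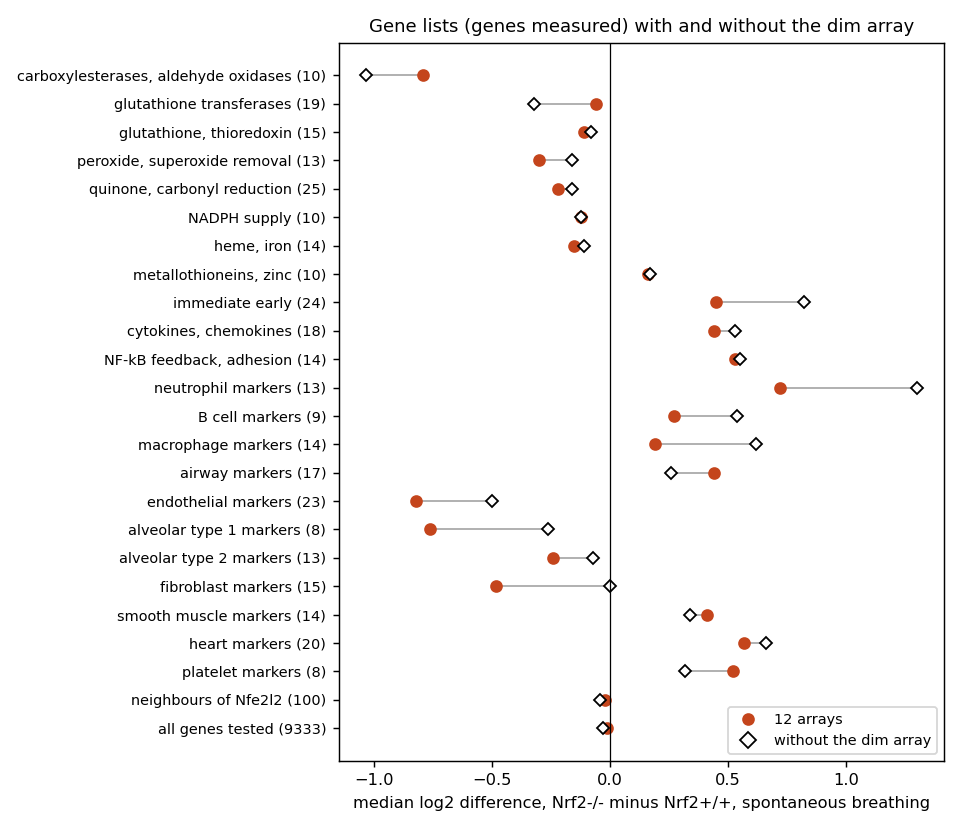
Median log2 difference, knockout minus wild type in spontaneously breathing lung, of 23 gene lists and of all genes tested, with all arrays (red circles) and without the dim knockout array 1 (open diamonds); numbers in brackets are genes measured with all arrays. With all arrays the endothelial markers (-0.82) and the carboxylesterases and aldehyde oxidases (-0.79) lie lowest, and without that array the latter lie lowest at -1.03, while endothelial, alveolar type 1 and fibroblast markers move towards 0 and neutrophil markers move from 0.72 to 1.30.

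Among the lower genes that were called only without array 1, Tcf7l1, a transcription factor of the WNT pathway, gave -2.40 ± 0.49 and Igfbp2, an insulin-like growth factor binding protein, -1.45 ± 0.30. Igfbp2 read 2195, 3230 and 2993 in wild-type lungs and 127, 1176 and 856 in knockout lungs, so its groups did not overlap with or without array 1. The 12 largest added falls were called in 1 to 4 of the 5 fits with 1 more array left out, with Ces1e most often called. The count of 175 itself fell to 33 and 43 when knockout array 2 or 3 was also left out, each of which leaves 1 knockout array that is assumed to vary like the other groups, and was 82, 134 and 75 without wild-type array 1, 2 or 3.

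**Figure D5:**
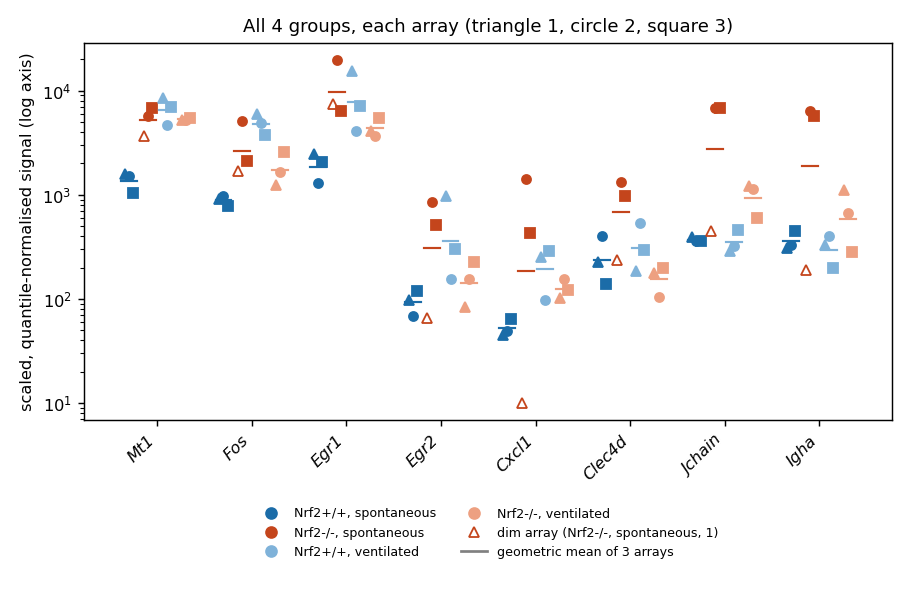
Signal of 8 genes on all 12 arrays, on a log axis: dark colours are spontaneously breathing lungs, light colours ventilated lungs, blue Nrf2+/+ and red Nrf2-/-; the open triangle is the dim array and bars are geometric means of 3 arrays. Mt1 is at 1043 to 1592 in unventilated wild-type lungs and at 3631 or above in every other lung, and Jchain and Igha are highest on knockout arrays 2 and 3 of the unventilated lungs.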

How the data were processed

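The deposited values were linear probe-set intensities from Affymetrix GCOS 1.4, per the submitters' processing notes, with scaling to 500 stated per the labels; they came without detection calls and their trimmed means differed, so the stated scaling is not visible in them. Each array was rescaled to a trimmed mean of 500 (2% off each end), quantile normalised, and put on log2(signal + 16). Probe sets needed a scaled signal of 100 on 3 arrays, control probe sets were left out, and each gene was read by its brightest probe set. Gene symbols came from the platform annotation, with 20393 single-gene probe sets, 691 with several genes and 1555 without a name.

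A limma 3.58.1 fit (R 4.3.3) of 4 group means over all 12 arrays gave two-sided tests, adjusted by Benjamini-Hochberg over all genes tested, called under 0.05; it was repeated without knockout array 1. The script was tested on simulated data. An exact permutation test of 3 against 3 arrays cannot go below p = 0.1. Intensities give no counting depth, and precision is limited by having 3 arrays a group. Named genes were Nfe2l2, called genes, up to 4 per list, and the 12 largest added rises and falls without array 1; others are named as examples of a list. Members and lists were chosen with earlier results of these data known. Alternatives were scaling, pseudocount, filter, probe-set choice, spread, array weights, actin ratio, replicate block and left-out arrays.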

Additional observations from a re-analysis of the deposited data

Results flagged for a closer look

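In the fit without knockout array 1, 6 of the genes named above had genotype differences that were not the same in spontaneously breathing and ventilated lungs, by the test of the difference between both contrasts in limma. With all 12 arrays that test called none of them. The values are spontaneous minus ventilated difference on the log2 scale.

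Jchain gave 2.73 ± 0.36 (adjusted p = 0.0131), from 4.12 in spontaneously breathing and 1.38 in ventilated lungs. Igha gave 3.03 ± 0.58 (adjusted p = 0.0334), from 4.0 and 0.97. Both immunoglobulin genes were thus above 0 in either condition. Cxcl1 gave 4.18 ± 0.63 (adjusted p = 0.0144), from 3.59 and -0.59. Egr1 gave 3.25 ± 0.64 (adjusted p = 0.0379), from 2.48 and -0.77, and Egr2 gave 3.91 ± 0.77 (adjusted p = 0.0379), from 2.66 and -1.24. Clec4d gave 3.16 ± 0.59 (adjusted p = 0.0334), from 2.22 and -0.94. For these 4 genes the sign differed between the conditions. All 6 were chosen for a large spontaneous difference in the same fit, which this test contains, and Egr2 was called in none of the 5 fits of the spontaneous difference with 1 more array left out.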

How the results depend on the processing

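Nfe2l2 kept its direction and call under every alternative run, at -4.70 to -5.98. The 31 calls became 30 to 38 under trimmed-mean or median scaling alone, pseudocounts of 1 and 64, no or a stricter filter, averaged probe sets, no intensity trend or robust spread, with 0 calls for the difference between conditions in each. They became 7 on deposited values without scaling (none higher, with the median of all genes at -0.47), 80 with every probe set tested, 12 with the 6 spontaneously breathing arrays alone, 386 with the actin 3' to 5' ratio as a covariate (1 for the difference between conditions) and 1585 with array weights (202). Leaving out 1 array gave 11 to 175 (0 to 82 for the difference between conditions), and leaving out 1 more after knockout array 1 gave 33 to 134 of 175. The other 30 called genes never changed sign: over these settings, 623 of their results kept the call and 187 lost it. With the replicate number as a block 36 genes were called. Same-numbered arrays correlated at 0.22, 0.07 and 0.12 in their deviations from the group means, and differently numbered ones at -0.23 to 0.16. These values do not decide whether arrays were paired. The labels do not state a pairing, so the main fit assumed none. Named list members that were not called changed sign on unscaled values for Oas1a (-0.07), Hspd1 (-0.13), Atf4 (-0.07), Psma6 (-0.17) and Cd8a (-0.33), with array weights for Cd1d1 (0.03) and Cd8a (-0.37), without wild-type array 2 for Cd8a (-0.27) and without knockout array 1 for Ifit3 (0.21, against -1.98 without knockout array 2). The cause was not tested for any of these. Signals under 100 on the dim array rest on deposited signals under 14.8.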

Other observations

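Lists not described above held no called gene with all arrays in 17 interferon-stimulated genes (median -0.11), 14 heat shock genes (0.18), 19 endoplasmic reticulum stress genes (0.29), 14 glucocorticoid response genes (-0.11), 26 proteasome genes (0.06) and 13 cytochrome P450 genes (-0.09). Without knockout array 1 the interferon and glucocorticoid medians turned to 0.29 and 0.14, and Lcn2, which is also a neutrophil marker, was called in the latter list at 1.71 ± 0.27 (adjusted p = 0.00814). In the same fit Hspa5, the main chaperone of the endoplasmic reticulum, was called at 0.59 ± 0.14 (adjusted p = 0.0467). Abcb1a, a drug efflux pump, was called at -1.08 ± 0.24 (adjusted p = 0.0391), from 158, 266 and 206 in wild-type lungs to 77 and 104 on knockout arrays 2 and 3, with 114 on array 1.

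The fibroblast marker list held no called gene, with a median of -0.48 over 15 genes and of 0.00 without knockout array 1, where 8 of the 15 were above 0. Its 2 members with the smallest p were collagen genes. Col1a1 read 1891, 1364 and 2501 in wild-type lungs and 1054, 629 and 835 in knockout lungs, and Col3a1 11090, 8169 and 10354 against 6457, 4244 and 6419. Neither pair of groups overlapped. The differences were -1.17 ± 0.32 (adjusted p = 0.134) and -0.80 ± 0.20 (adjusted p = 0.121), and in ventilated lungs 0.27 and 0.33. Of 8 red cell markers measured, 4 were above 0 and 4 below, with a median of -0.01 and none called. Without knockout array 1 the median was -0.17. They summed to 7979 to 9009 in wild-type lungs and 6366, 9046 and 5897 in knockout lungs. The member with the smallest p, Alas2, the heme synthesis enzyme of red cell precursors, was more uneven. It read 529, 2764 and 1105 in knockout lungs against 2520 to 2799 in wild-type lungs.

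At the level of single probe sets, 80 of 15855 were called, and 13 of these had no single gene name, out of 1301 such probe sets tested.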
